A study of Rattus norvegicus with 12 samples.

Results

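Livers of male Wistar rat pups whose dams were fed a low protein diet (MLP, n = 4) were compared with livers of pups from dams on the control diet (C, n = 4), all collected 1 day after birth. Samples were taken by the maternal diet in their titles, and the comparison covers 8 of the 12 samples of the series and 15753 of 22505 array probes, those with a mean level above the 30th percentile. The other 4 livers, from dams on the low protein diet with added folic acid (MLP-F), entered the fit only to estimate the spread within groups. They also entered the mean level over the 12 livers, which filtered the probes and set the main groups of level. RNA of each liver was hybridised to the Illumina RatRef-12 BeadChip, on which every bead type carries a probe for a transcript. A single litter per diet was studied, so diet and litter cannot be told apart, and the p-values measure the spread among littermates. In whole tissue, a loss of cells of a type cannot be told apart from less RNA per cell.

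At birth the rat liver passes from a blood-forming organ fed by the placenta to a metabolic organ fed by milk. Hepatocytes then oxidise fatty acids, break down amino acids and pass the nitrogen to urea, make bile acids, modify foreign compounds and secrete most plasma proteins. Glucocorticoids and the circadian clock, a loop of transcription factors and their repressors, set the daily and developmental level of many of these genes.

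Levels are given on a re-expanded log2 scale. The deposited log2 values ran only from 4.00 to 4.63 and were read, from the values alone, as log2 of 16 plus a level that was already a log2 value. Taking 2 to the power of each value and subtracting 16 gave levels from 0.047 to 8.82. On this scale a difference was read as about a log2 ratio, which is probably too small for dim probes. Differences are MLP minus C, from a linear model fitted with limma to all 12 livers, and a probe was called when its p-value was under 0.05 after Benjamini-Hochberg adjustment over all 15753 probes. All adjusted p-values below are from limma.

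In MLP livers 358 probes were higher and 327 were lower than in C livers, so that 685 of 15753 probes, or 4.35%, were called (2.27% higher and 2.08% lower). At an adjusted p under 0.01 there were 155 called probes, or 0.984%. The 4 MLP values and the 4 C values did not overlap in 666 of the 685 called probes, against 12.2% of all kept probes. Over all kept probes 51.7% of differences were positive and the median difference was 0.0037. The balance of the calls differed between gene classes. In lists of DNA replication, mitosis, cell cycle entry, DNA repair, and DNA methylation and polycomb genes, which are not followed further here, 8 of 239 probes (3.35%) were called higher and 61 (25.5%) were called lower. Outside these lists 350 probes (2.26%) were called higher and 266 (1.71%) lower, 3.97% in all, so 56.8% of the calls were rises, against 52.3% of all calls. The lists were chosen with earlier results of these data known, so this shift is not independent of the choice. Some falls of mitosis genes, such as Kntc1 (-0.68) and Spag5 (-0.48), lie outside them. Probes with a gene symbol were called more often, 563 of 10552 (5.34%), than probes without one, 122 of 5201 (2.35%).

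**Figure D1:**
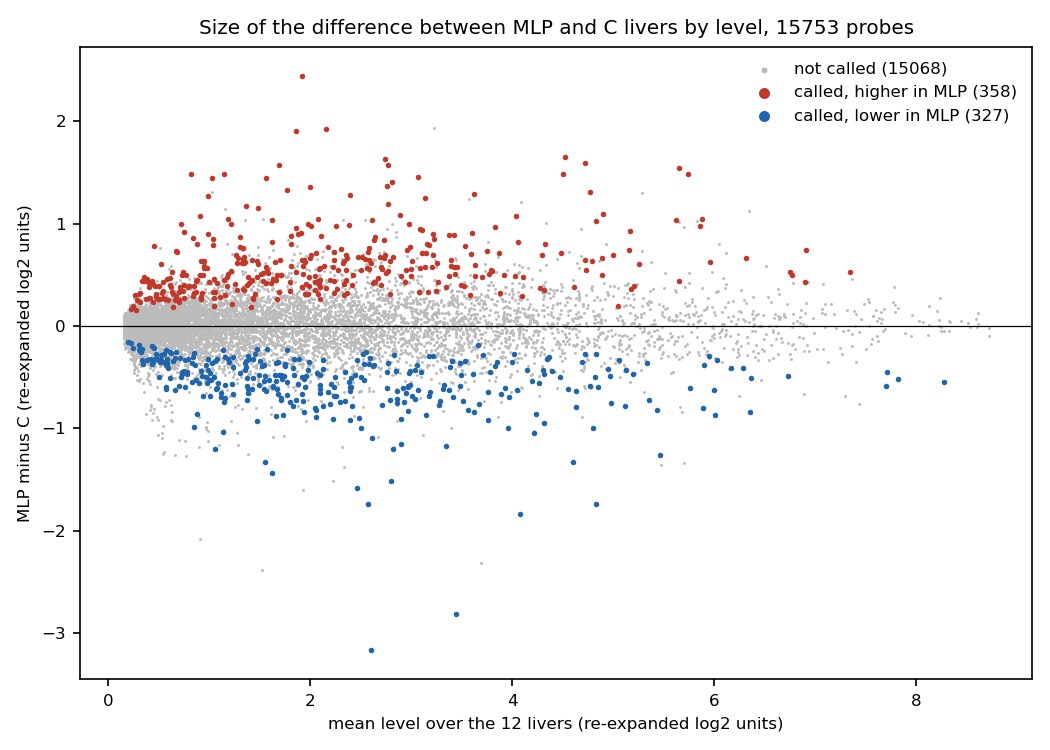
Difference between MLP and C livers (vertical axis, re-expanded log2 units) against the mean level over the 12 livers (horizontal axis, same units), 1 point per kept probe. The 358 called rises and 327 called falls lie on both sides at all levels above the dimmest probes, and many of the uncalled probes (grey) below -1 were highest in C replicate 1 or 4.

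The called differences were mostly below 1 unit. Among called rises the median size was 0.53 and the 90th percentile 1.04, and among called falls the median was 0.51 and the 90th percentile 0.87. Beyond 1 unit there were 40 called rises and 18 called falls, of which 5 belonged to the cell cycle, DNA repair and DNA methylation lists. Beyond 1.5 units there were 9 rises and 7 falls. The smallest called difference was 0.158. A further 48 probes differed by more than 1 unit without being called, 33 of them lower and 15 higher in MLP. Their median SD was 0.198 in MLP livers and 1.26 in C livers, whereas the median over all kept probes was 0.083 in MLP and 0.086 in C.

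Calls were rare among dim probes. When probes were divided into 5 equal groups by their mean level, 1, 6, 73, 247 and 358 probes were called from the lowest to the highest group, which is 0.0317%, 0.190%, 2.32%, 7.84% and 11.4% of each group. The median size of the called differences grew with level as well, from 0.159 in the lowest group through 0.33 in the middle group to 0.60 in the highest group. Rises made up 53.4%, 52.2% and 52.0% of the calls in the upper 3 groups, an almost even split. Of the calls at an adjusted p under 0.01, rises were 9 of 12, 32 of 48 and 47 of 95 in the same groups. With probes ordered by their mean in C livers alone, 6 of 6 and 13 of 13 calls in the lowest 2 groups were rises, and 44.6% of the calls in the highest group were. On that ordering a probe that rose is placed lower, and a probe that fell higher, than by the mean over all livers.

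**Figure D2:**
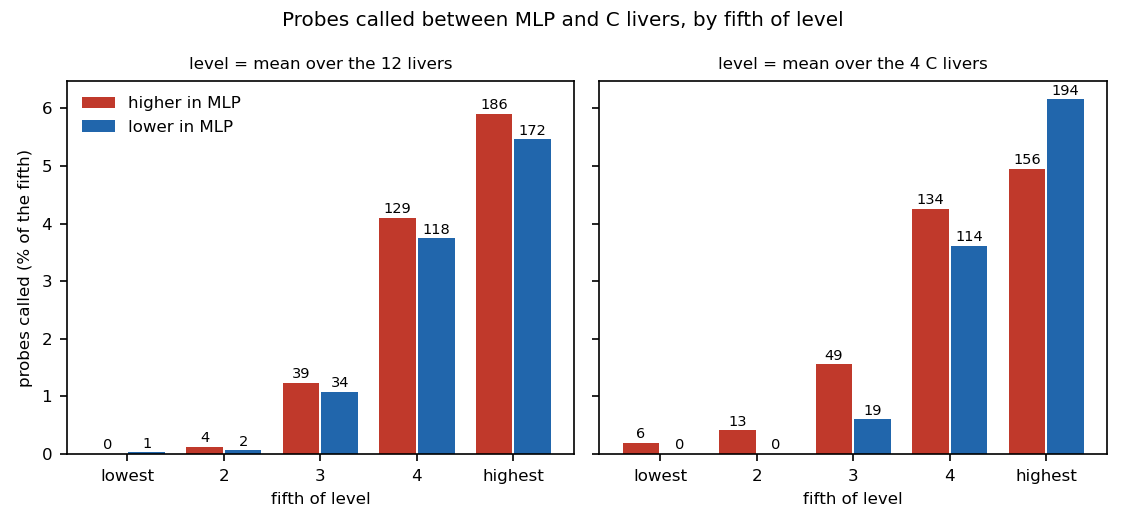
Share of probes called higher and lower in MLP livers (vertical axis, % of probes) in 5 equal groups of level (horizontal axis, lowest to highest), with levels averaged over the 12 livers on the left and over the 4 C livers on the right. Numbers above the bars are counts of probes, and the share rises with level on both orderings.

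Transcripts of tissues other than liver were high in 2 of the C livers. The summed level of 21 skeletal muscle probes ran from 8.06 to 8.74 in MLP livers and stood at 11.9, 7.98, 8.78 and 61.0 in C livers, so that C replicate 4 was apart. The lung epithelium list of 9 probes behaved alike, at 3.07 to 3.92 in MLP livers, against 18.0 in C replicate 4 and 2.62 to 3.31 in the other C livers. In C replicate 1 it was the keratinocyte list that stood out, at 17.2, against 3.13 to 3.41 in the other C livers and 3.68 to 4.13 in MLP livers. Acta1, the skeletal muscle actin, was at 0.24, 0.18, 0.24 and 0.17 in MLP livers, against 1.0, 0.24, 0.71 and 7.22 in C livers, and Actg2, a smooth muscle actin, was at 0.50, 0.49, 0.54 and 0.58 in MLP livers, against 7.48, 0.98, 0.94 and 2.23 in C livers. Neither was called (adjusted p = 0.431 and 0.315). Limma called 0 of the skeletal muscle, smooth muscle, keratinocyte and lung probes (1, 2, 0 and 1 at an unadjusted p below 0.05, which 17.3% of all kept probes met). Their median differences were -0.60, -0.14, -0.34 and -0.28 with all livers, and 0.0088, 0.0068, 0.0066 and 0.016 without C replicates 1 and 4. Of 10 intestine and stomach probes 1 was called, the fall of Fabp2 given below, which was at 2.84 to 3.43 in the C livers. That list summed to 6.74 to 7.41 in MLP livers and 7.22 to 8.93 in C livers. The pancreas, kidney and adrenal, fat, and cartilage and bone lists had 0 calls. Among the 33 uncalled falls beyond 1 unit, the highest C value was in C replicate 1 for 16 probes and in C replicate 4 for 10. Defining hepatocyte markers had a summed level of 52.7 to 53.3 in MLP livers and 51.7 to 53.1 in C livers, with 0 of 8 probes called and 0 at an unadjusted p below 0.05. Across all kept probes littermates correlated with r of 0.990 to 0.993 in MLP and 0.977 to 0.989 in C.

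The called differences were of similar size without these 2 livers, while most lost their call. With C replicates 1 and 4 left out, 211 probes were called, or 1.34%, of which 107 (0.679%) were higher and 104 (0.66%) lower in MLP. Of the 685 probes called with all C livers, 177 were called again, 95 of them higher and 82 lower, and all 685 had the same direction. For the 666 called probes whose groups did not overlap, leaving out C livers could not change the direction. The ratio of the difference without these livers to the one with them had a median of 1.01, with 10th and 90th percentiles of 0.82 and 1.18, and 629 of the 685 probes had a ratio of at least 0.8. Their median standard error was 0.122 without the 2 livers and 0.103 with all C livers. The 685 probes were chosen by a fit that held these 2 livers, and both differences share the other livers. Ratios near 1 were therefore favoured in advance. The ratio was under 0.5 for 1 probe, that of Htra1, a secreted serine protease, at 0.35, 0.22, 0.18 and 0.19 in MLP livers, against 1.18, 0.38, 0.63 and 1.11 in C livers, with a difference of -0.59 that became -0.27 (adjusted p = 0.170). A further 34 probes were called only without the 2 livers, 12 higher and 22 lower. Among these were Pmepa1, an inhibitor of TGF-beta signalling, at 3.12, 3.71, 3.54 and 3.48 in MLP livers, against 3.94, 1.38, 1.64 and 2.77 in C livers, and Smad4, the shared mediator of that signalling, at 2.86, 3.72, 3.0 and 3.08 in MLP livers, against 3.65, 1.82, 1.58 and 1.58 in C livers. In both genes C replicate 1 was as high as the MLP livers. Their differences were 1.95 and 1.46 without the 2 livers (adjusted p = 0.00288 and 0.0313) and 1.03 and 1.01 with them.

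**Figure D3:**
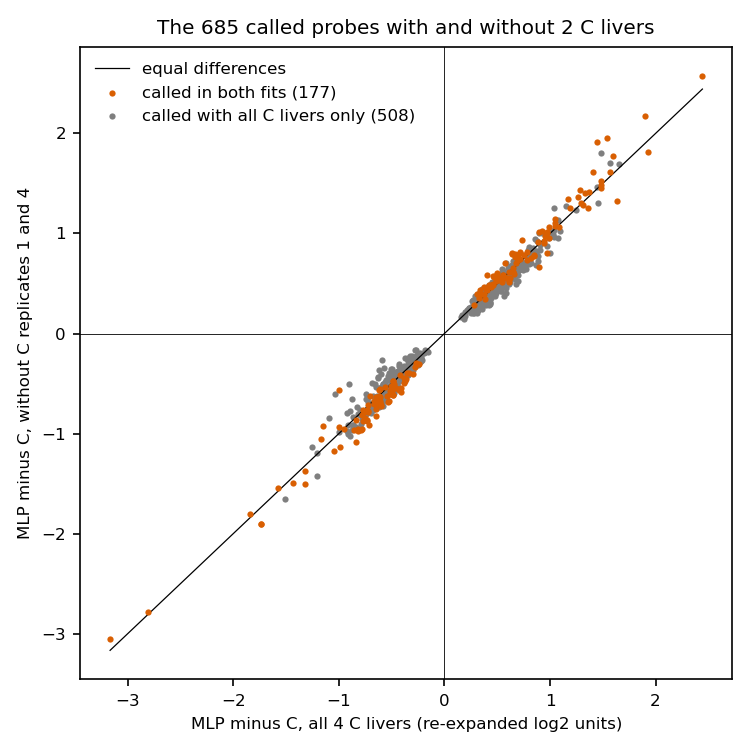
Difference between MLP and C livers for the 685 called probes with all 4 C livers (horizontal axis) and without C replicates 1 and 4 (vertical axis), both in re-expanded log2 units, with the line of equal differences. All 685 points keep their sign, which was fixed in advance for the 666 probes without overlap of the groups, and 177 were called in both fits.

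The largest called rise was in Hbe1, an embryonic beta-like globin, at 4.04, 2.67, 4.70 and 3.90 in MLP livers, against 1.04, 1.83, 0.67 and 1.99 in C livers, a difference of 2.44 (SE 0.39, adjusted p = 0.00817). Its SD was 0.84 in MLP and 0.63 in C, well above the medians given for all probes, and its lowest MLP liver was still above every C liver. The next largest rises, of 1.92 and 1.90, were in ILMN_1374388 and ILMN_1376205, probes without a symbol. Calls among the other erythroid genes went both ways. Of 28 erythroid probes 2 were higher and 2 lower, with a median of -0.098. Ahsp, the chaperone of free alpha globin, was at 7.56, 7.38, 7.43 and 7.61 in MLP livers, against 7.83, 8.12, 8.0 and 8.09 in C livers, a fall of 0.51 (SE 0.11, adjusted p = 0.0213). Car2, the red cell carbonic anhydrase, fell by 0.60 (SE 0.11, adjusted p = 0.0116), and Alas2, the erythroid enzyme that begins heme synthesis, rose by 0.34 (SE 0.07, adjusted p = 0.0204). The summed erythroid level was 84.5 to 92.1 in MLP livers and 85.2 to 94.0 in C livers. Of these 4 genes, 1 was also called without C replicates 1 and 4, and the others had adjusted p-values of 0.0708 to 0.106 there. Leaving out each of the 12 livers in turn ended the call of Alas2 in 4 fits and Ahsp in 4, with an adjusted p of up to 0.0694 (Ahsp without MLP replicate 2).

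**Figure D4:**
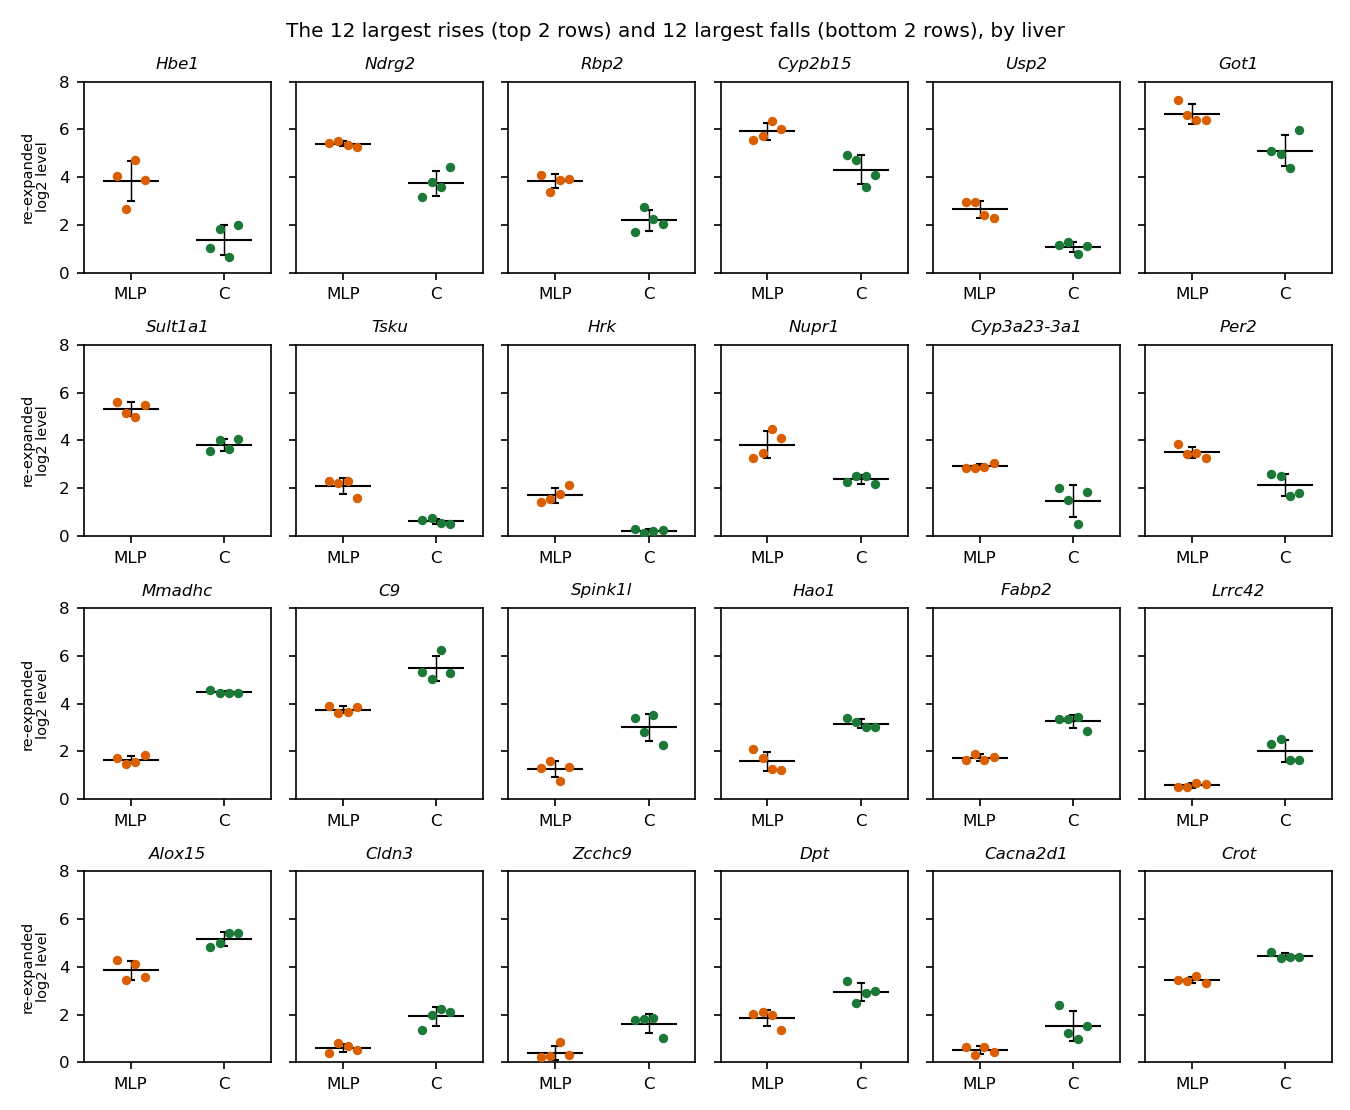
Level of the 12 genes with a symbol that had the largest called rises (upper rows) and falls (lower rows) outside the cell cycle, DNA repair and DNA methylation lists, in 4 MLP livers (orange, left) and 4 C livers (green, right), in re-expanded log2 units. Points are livers, horizontal lines are means and bars are SDs, and in each gene the MLP values lie wholly on one side of the C values, as the rule for naming them required.

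Rbp2, a cellular retinol-binding protein, was at 4.08, 3.39, 3.89 and 3.92 in MLP livers, against 1.72, 2.75, 2.25 and 2.04 in C livers, a rise of 1.63 (SE 0.21, adjusted p = 0.00301). The secreted carrier of retinol from the liver, Rbp4, rose by 0.68 (SE 0.10, adjusted p = 0.00587), while Bco1, which cleaves beta-carotene to retinal, fell by 0.76 (SE 0.16, adjusted p = 0.0262). These were the 3 called probes of 22 for retinoids, whose median was -0.047. Tsku, a secreted proteoglycan of the small leucine-rich family, was at 2.30, 2.20, 2.28 and 1.59 in MLP livers, against 0.67, 0.74, 0.53 and 0.51 in C livers, a rise of 1.48 (SE 0.15, adjusted p = 0.00116). Ndrg2, a member of the NDRG family of stress-responsive genes, was at 5.43, 5.52, 5.36 and 5.27 in MLP livers, against 3.15, 3.81, 3.59 and 4.41 in C livers, a rise of 1.65 (SE 0.40, adjusted p = 0.0429). All MLP livers lay within a narrow band in Ndrg2, and the C livers were spread over more than 1 unit. Hrk, a pro-apoptotic BH3-only protein, was near the floor of the scale in C livers and not in MLP livers, at 1.41, 1.53, 1.74 and 2.13 in MLP livers, against 0.28, 0.13, 0.22 and 0.26 in C livers, a rise of 1.48 (SE 0.16, adjusted p = 0.00152). Bcl2l14, another member of the Bcl2 family, rose by 0.64, the apoptotic caspase Casp6 fell by 0.40, and 3 of 37 apoptosis probes were called in all. Among 12 targets of p53 there were 0 calls, with 2 at an unadjusted p below 0.05. In the fit without C replicates 1 and 4, 5 of the 8 genes passed, and the rest had adjusted p-values of 0.0857 to 0.207. Of the 12 fits that each leave 1 liver out, 8 lost the call of Ndrg2, 7 that of Casp6, 7 that of Bco1 and 6 that of Bcl2l14. The adjusted p was up to 0.113 (Ndrg2 without MLP replicate 2).

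The largest fall of any probe was in ILMN_1349205, for which no gene symbol was found, at 0.27, 0.22, 0.35 and 0.47 in MLP livers, against 3.59, 3.40, 3.37 and 3.62 in C livers, a fall of 3.17 (SE 0.10, adjusted p = 4.39e-08). Another probe without a symbol, ILMN_1650062, fell by 1.84 (SE 0.08, adjusted p = 4.84e-07), and these 2 had the smallest p-values of the comparison. Mmadhc, which routes cobalamin inside the cell to the enzymes that use it, was at 1.72, 1.49, 1.56 and 1.85 in MLP livers, against 4.56, 4.45, 4.43 and 4.43 in C livers, a fall of 2.81 (SE 0.19, adjusted p = 4.29e-05). The gap between the groups in Mmadhc was larger than the range within either. It was the only call among 10 cobalamin and 13 folate probes, whose median differences were 0.052 and 0.048. The remaining 2 of the 5 smallest p-values were rises. ILMN_1352530, without a symbol, rose by 0.95 (SE 0.08, adjusted p = 0.000296), and Smim3, a small membrane protein, was at 2.80, 2.80, 2.65 and 2.69 in MLP livers, against 1.89, 1.80, 1.84 and 1.88 in C livers, a rise of 0.88 (SE 0.08, adjusted p = 0.000441). In both groups the 4 values of Smim3 were close together. The 5 calls held without C replicates 1 and 4.

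Other large falls touched a mixed set of genes. Lrrc42 was at 0.50, 0.50, 0.69 and 0.64 in MLP livers, against 2.30, 2.50, 1.65 and 1.62 in C livers, a fall of 1.43 (SE 0.17, adjusted p = 0.00274). Alox15, a lipoxygenase of polyunsaturated fatty acids, was at 4.27, 3.44, 4.13 and 3.56 in MLP livers, against 4.85, 5.02, 5.43 and 5.40 in C livers, a fall of 1.32 (SE 0.21, adjusted p = 0.00783). Spink1l, named as a Kazal-type protease inhibitor, was at 1.32, 1.61, 0.78 and 1.36 in MLP livers, against 3.40, 2.83, 3.51 and 2.27 in C livers. It fell by 1.73 (SE 0.29, adjusted p = 0.00895). Zcchc9 fell by 1.20 (SE 0.27, adjusted p = 0.0335), with 1 low C liver, replicate 4, at 1.03 beside 1.76 to 1.87 in the others. Dpt, an extracellular matrix protein, and Cacna2d1, a calcium channel subunit, fell by 1.10 and 1.03. Their highest C values were in C replicate 1, at 3.43 and 2.42, the liver with keratinocyte and fibroblast transcripts, and without C replicates 1 and 4 the differences were -0.84 and -0.60 (adjusted p = 0.0854 and 0.0679). The 21 stellate cell and fibroblast probes had a median of -0.63 with all livers and -0.094 without these 2, with 0 calls in both (4 at an unadjusted p below 0.05 with all livers). A call was also made without C replicates 1 and 4 in 3 of the 6 genes, and the rest had adjusted p-values of 0.0646 to 0.0854. Calls were lost for Cacna2d1 in 8 of the 12 fits that each leave 1 liver out and for Zcchc9 in 6. Cacna2d1 without MLP replicate 2 had the highest adjusted p, 0.115.

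Over 44 pathway lists, the 1314 kept probes outside the cell cycle, DNA repair and DNA methylation lists held 91 rises and 43 falls, or 10.2% called. The lists were chosen for the liver with results of these data known, so their share is not independent evidence, and brighter genes are also more often called. The direction of the calls differed from list to list, and is given with each.

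**Figure D5:**
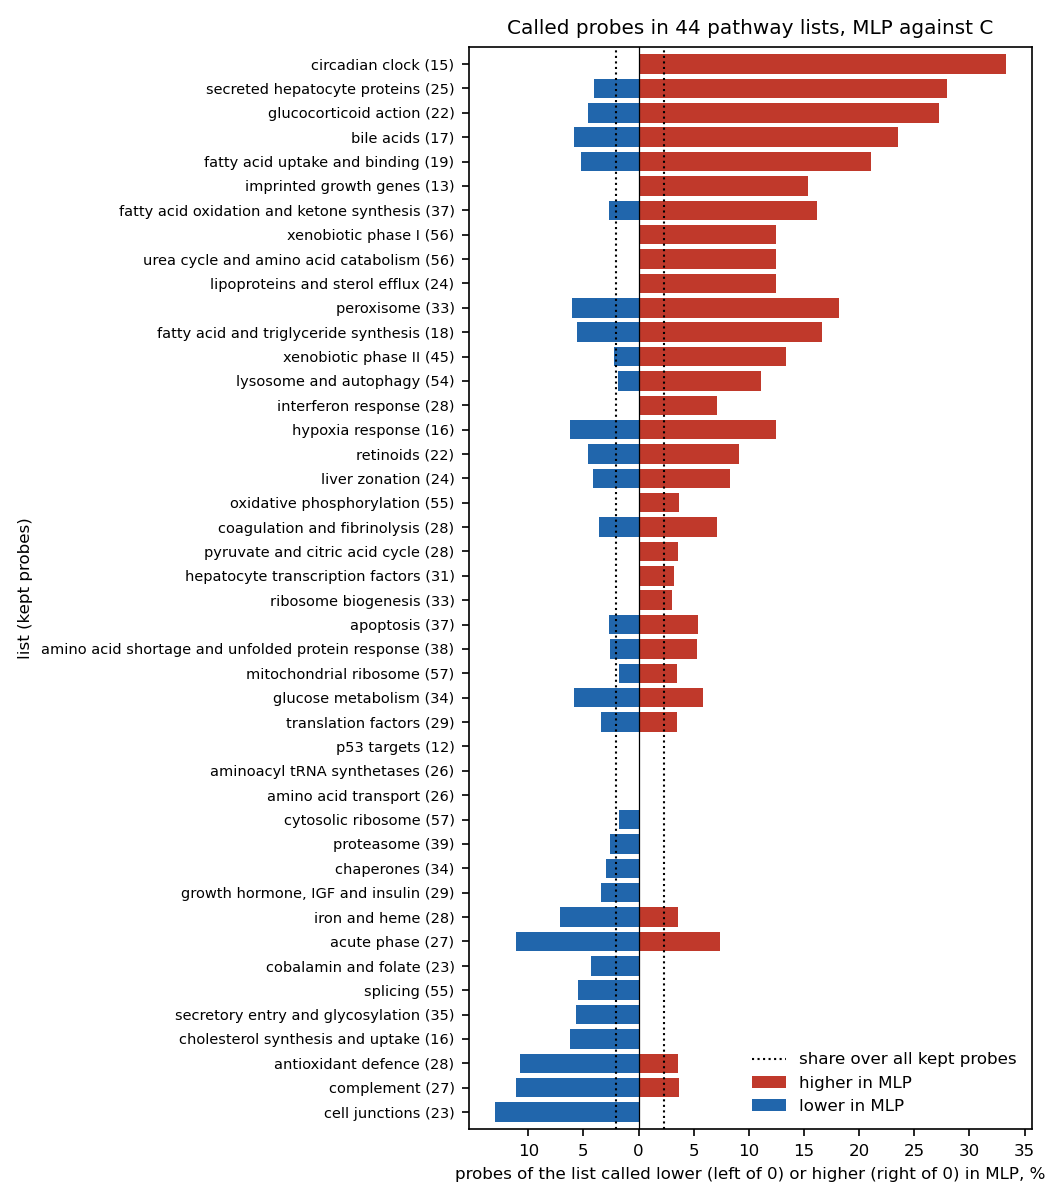
Share of the kept probes of 44 pathway lists that were called higher (right of 0) or lower (left of 0) in MLP livers (horizontal axis, %), with the number of kept probes in brackets and the shares over all kept probes as dotted lines. The circadian clock list stands at the top with 33.3% called higher, and the cell junction list at the bottom with 13% called lower.

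Calls in amino acid catabolism were all rises. Of 56 probes for the urea cycle and amino acid breakdown 7 were called, all higher, and 43 differences were positive with a median of 0.21, against 0.0037 over all kept probes. Got1, the cytosolic aspartate aminotransferase, was at 7.24, 6.58, 6.38 and 6.39 in MLP livers, against 5.08, 4.98, 4.39 and 5.96 in C livers, a rise of 1.54 (SE 0.32, adjusted p = 0.0204). C replicate 4 was the nearest to the MLP livers. Gpt, the alanine aminotransferase, was at 3.25, 3.41, 2.85 and 3.40 in MLP livers, against 1.43, 1.71, 1.86 and 2.77 in C livers, a rise of 1.28 (SE 0.27, adjusted p = 0.0235). Arg1, the arginase that releases urea, was at 6.74, 6.79, 6.56 and 6.57 in MLP livers, against 5.37, 5.58, 5.59 and 5.91 in C livers, a rise of 1.05 (SE 0.17, adjusted p = 0.00885). In all 3 genes the lowest MLP liver was above the highest C liver. The tyrosine-degrading enzyme Fah rose by 0.89, Bckdha, a subunit of the branched-chain keto acid dehydrogenase, by 0.77, the hydroxyproline dehydrogenase Prodh2 by 0.71 and the mitochondrial aminotransferase Got2 by 0.37. With C replicates 1 and 4 left out, 5 probes of the list were called, all higher, and the median was 0.23. The 26 amino acid carriers had 0 calls (3 at an unadjusted p below 0.05) and a median of 0.020, and so did the 26 aminoacyl tRNA synthetases (4 at an unadjusted p below 0.05), whose median was -0.010. In the list of genes induced by amino acid shortage 2 of 20 were higher, Nupr1 and Ddit4, with a median of 0.026. Nupr1, a small stress-induced nuclear protein, was at 3.24, 3.46, 4.46 and 4.12 in MLP livers, against 2.26, 2.51, 2.52 and 2.17 in C livers, a rise of 1.45 (SE 0.25, adjusted p = 0.00981), and Ddit4, an inhibitor of mTOR complex signalling, rose by 0.54 (SE 0.14, adjusted p = 0.0496). With C replicates 1 and 4 left out, 3 of these 9 genes were called, and the others had adjusted p-values of 0.087 to 0.279. With livers left out singly, the calls lost were Got1 in 4 of the 12 fits, Got2 in 6, Ddit4 in 11, Prodh2 in 1 and Gpt in 6, where the adjusted p reached 0.119 for Ddit4 without C replicate 1.

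Fat metabolism changed at several steps. Of 25 probes for mitochondrial fatty acid oxidation 5 were higher and 0 lower, with a median of 0.14. Without C replicates 1 and 4, 1 was higher and 0 lower, and the median was 0.15. The 2 ketone synthesis probes had 0 calls with all livers, and without C replicates 1 and 4 Bdh1 fell by 0.86 (adjusted p = 0.0442). Over all 37 oxidation and ketone synthesis probes, 6 rises and 1 fall became 1 rise and 2 falls. The acyl-CoA dehydrogenase Acad10 was at 2.51, 2.52, 2.70 and 2.70 in MLP livers, against 1.49, 1.93, 1.67 and 1.45 in C livers, a rise of 0.97 (SE 0.13, adjusted p = 0.00369). The carnitine system rose at 3 points, in the transferase Crat by 0.69, the translocase Slc25a20 by 0.61 and the inner membrane transferase Cpt2 by 0.60. Its peroxisomal member moved the other way. Crot, the carnitine octanoyltransferase, was at 3.45, 3.40, 3.62 and 3.34 in MLP livers, against 4.63, 4.38, 4.40 and 4.39 in C livers, a fall of 1.00 (SE 0.14, adjusted p = 0.00401). In triglyceride synthesis Lpin1, the phosphatidate phosphatase, was at 2.23, 1.99, 1.92 and 2.43 in MLP livers, against 1.37, 0.95, 0.64 and 0.92 in C livers, a rise of 1.17 (SE 0.15, adjusted p = 0.00315). Agpat2 and Dgat1, which act before and after it, rose by 0.89 and 0.78, while Fads1, a fatty acid desaturase, was at 2.46, 2.34, 2.57 and 2.54 in MLP livers, against 3.06, 3.29, 3.17 and 2.99 in C livers, a fall of 0.65 (SE 0.08, adjusted p = 0.00274). Among proteins of the lipid droplet, Plin5, a droplet coat protein, rose by 0.92, Cidec, which fuses droplets, by 0.91 and Pnpla2, the first lipase of triglyceride breakdown, by 0.72. Fabp2, the intestinal type of fatty acid-binding protein, was at 1.64, 1.91, 1.63 and 1.78 in MLP livers, against 3.36, 3.37, 3.43 and 2.84 in C livers, a fall of 1.51 (SE 0.30, adjusted p = 0.0180). The median over the 19 fatty acid uptake and binding probes was 0.061. Of the 13 genes given here that were called with all livers, 6 were also called without C replicates 1 and 4, and the rest had adjusted p-values of 0.0576 to 0.186 there. Leaving out each of the 12 livers in turn ended the call of Crat in 1 fit, Cidec in 7, Slc25a20 in 5, Fabp2 in 1 and Pnpla2 in 6, with an adjusted p of up to 0.0993 (Pnpla2 without MLP replicate 2).

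Sterol handling showed rises in export and bile acid genes and a fall in synthesis. The 24 lipoprotein and sterol efflux probes held 3 rises and 0 falls, with a median of 0.073. Abcg5, a subunit of the canalicular sterol transporter, was at 1.62, 1.19, 1.78 and 1.55 in MLP livers, against 0.73, 0.58, 0.46 and 0.78 in C livers, a rise of 0.89 (SE 0.11, adjusted p = 0.00274). Abcg1, which moves cholesterol to lipoproteins, rose by 1.25, and the phospholipid transfer protein Pltp by 0.30. A second probe of Pltp differed by 0.15 (adjusted p = 0.607). Sqle, the squalene epoxidase of cholesterol synthesis, fell by 0.84 (SE 0.19, adjusted p = 0.0307). It was the only call among the 16 probes of the cholesterol synthesis and uptake list, whose median was -0.047. That list did not include Acat2, whose fall is given among the other observations below. Bile acid genes had 4 rises and 1 fall among 17 probes, with a median of 0.28 and 15 positive differences. Abcc3, a basolateral exporter of bile acids and conjugates, was at 3.24, 3.41, 3.65 and 3.63 in MLP livers, against 2.34, 2.28, 2.17 and 2.37 in C livers, a rise of 1.19 (SE 0.17, adjusted p = 0.00439). Slc27a5, the ligase that activates bile acids for conjugation, rose by 1.02, Cyp27a1, which begins the acidic pathway, by 0.63 and the phospholipid flippase Abcb4 by 0.45. Cyp7b1, the next enzyme of the acidic pathway, fell by 0.23. Abcc3 was the only call among these 17 probes that held without C replicates 1 and 4. In the fit without C replicates 1 and 4, 2 of the 9 genes passed, and the others had adjusted p-values of 0.0646 to 0.257. Of the 12 fits that each leave 1 liver out, 8 lost the call of Slc27a5, 8 Abcg1, 6 Sqle, 10 Abcb4, 9 Cyp7b1 and 2 Pltp. The adjusted p was up to 0.13 (Abcb4 without MLP replicate 4).

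Calls among peroxisome assembly genes went 1 way. Of 13 peroxins 5 were higher and 0 lower, all 13 differences were positive and the median was 0.20. Pex16, which places membrane proteins in new peroxisomes, was at 3.52, 3.41, 3.48 and 3.70 in MLP livers, against 2.25, 2.38, 2.55 and 2.62 in C livers, a rise of 1.08 (SE 0.10, adjusted p = 0.000441). Pex6, Pex19, Pex13 and Pex3 rose by 0.62, 0.62, 0.57 and 0.28. The enzymes inside the organelle were mixed, with 1 rise and 2 falls among 20 probes and a median of 0.054. Hacl1, which shortens 2-hydroxy fatty acids, rose by 1.04 (SE 0.20, adjusted p = 0.0178). Hao1, the glycolate oxidase, was at 2.09, 1.74, 1.27 and 1.23 in MLP livers, against 3.38, 3.25, 3.01 and 3.01 in C livers, a fall of 1.58 (SE 0.21, adjusted p = 0.00379), and Scp2, the sterol carrier and thiolase gene, fell by 0.47 (SE 0.11, adjusted p = 0.0445). Pex16 and Hao1 were the 2 calls that held without C replicates 1 and 4. Without C replicates 1 and 4, 2 of the 8 genes passed and the rest had adjusted p-values of 0.0647 to 0.188. When 1 liver at a time was left out, the call was lost for Hacl1 in 2 of the 12 fits, Pex3 in 7, Scp2 in 10 and Pex6 in 6, and the highest adjusted p was 0.113 (Pex3 without MLP replicate 2).

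Glucose genes moved in both directions, with 2 rises and 2 falls among 34 probes and a median of 0.032. Pfkfb1, the liver enzyme that makes and breaks down fructose 2,6-bisphosphate, was at 4.23, 4.11, 4.13 and 4.35 in MLP livers, against 3.09, 2.86, 2.92 and 2.77 in C livers, a rise of 1.29 (SE 0.13, adjusted p = 0.000888). The glucose 6-phosphate translocase Slc37a4 rose by 0.80. Fbp1, the fructose bisphosphatase of gluconeogenesis, was at 6.22, 6.34, 6.65 and 6.48 in MLP livers, against 6.96, 7.04, 6.93 and 6.71 in C livers, a fall of 0.49 (SE 0.11, adjusted p = 0.0325), and the liver phosphofructokinase Pfkl fell by 0.48 (SE 0.09, adjusted p = 0.0173). Pdk1, a kinase that inactivates pyruvate dehydrogenase, rose by 0.55. The citric acid cycle had 0 of 18 probes called (6 at an unadjusted p below 0.05), and its median was 0.026. Oxidative phosphorylation had 2 rises among 55 probes, Ndufs7 and Ndufv3 of complex I, at 0.39 and 0.27, and its share of 3.64% was below that over all probes, although 41 of 55 differences were positive with a median of 0.088. A call was also made without C replicates 1 and 4 in 1 of the 7 genes, and the others had adjusted p-values of 0.0647 to 0.137. Over the 12 fits that each leave 1 liver out, calls were lost for Ndufs7 in 7, Fbp1 in 6, Slc37a4 in 5, Pdk1 in 3 and Ndufv3 in 6. Ndufs7 without MLP replicate 2 had the highest adjusted p, 0.104.

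In foreign compound metabolism the calls lay in cytochromes P450 and in conjugation. Of 35 cytochrome P450 probes 7 were higher and 0 lower, with a median of 0.16. The 21 probes of other oxidation and hydrolysis had 0 calls (6 at an unadjusted p below 0.05) and a median of 0.020, which was -0.032 without C replicates 1 and 4. Among 45 conjugation probes 6 were higher and 1 lower, with a median of 0.066, and the 10 sulphation probes among them had 2 rises, 1 fall and a median of -0.0022. Cyp2b15 was at 5.56, 5.72, 6.34 and 6.03 in MLP livers, against 4.93, 4.70, 3.57 and 4.07 in C livers, a rise of 1.59 (SE 0.30, adjusted p = 0.0136). Cyp3a23-3a1 was at 2.86, 2.82, 2.89 and 3.06 in MLP livers, against 2.02, 1.49, 0.48 and 1.85 in C livers, a rise of 1.45 (SE 0.27, adjusted p = 0.0145), and a second probe of the gene rose by 1.49 (adjusted p = 0.0497). Por, the reductase that feeds electrons to P450s, rose by 0.74, Cyp3a9 by 0.86, Cyp4f5 by 0.42 and Cyp4a8 by 0.30. Nr1i2, the pregnane X receptor that regulates Cyp3a genes, was at 3.57, 3.68, 3.37 and 3.61 in MLP livers, against 2.97, 2.94, 2.45 and 2.67 in C livers, a rise of 0.80 (SE 0.14, adjusted p = 0.0110). It was the only call among 31 probes for hepatocyte transcription factors, a share of 3.23%, below the 4.35% over all kept probes. In conjugation Sult1a1, a phenol sulphotransferase, was at 5.60, 5.15, 4.99 and 5.47 in MLP livers, against 3.57, 4.01, 3.63 and 4.05 in C livers, a rise of 1.49 (SE 0.22, adjusted p = 0.00645). Papss2, which makes the sulphate donor, rose by 0.62, and the glucuronosyltransferase Ugt1a6, the glutathione transferases Gstm7 and Gsta3 and the glycine acyltransferase Glyat rose by 0.99, 0.79, 0.64 and 0.31. Sult2a6, a sulphotransferase of hydroxysteroids, was at 2.48, 2.72, 2.37 and 2.69 in MLP livers, against 3.13, 3.57, 3.40 and 3.02 in C livers, a fall of 0.71 (SE 0.13, adjusted p = 0.0121). Members of the P450, sulphotransferase and glutathione transferase families are near copies of each other, and cross-hybridisation between them was not tested. With C replicates 1 and 4 left out, 7 of these 14 genes were called, and the rest had adjusted p-values of 0.0515 to 0.167. With livers left out singly, the calls lost were Gstm7 in 4 of the 12 fits, Gsta3 in 9 and Cyp4a8 in 6, where the adjusted p reached 0.121 for Gsta3 without MLP replicate 3.

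Of the 44 lists, the circadian clock had the highest share of rises. Of 15 probes 5 were higher and 0 lower (33.3%), with a median of 0.17. Of the 8 probes for repressors and modifiers 4 were higher, the repressors Per1, Per2 and Cry1 and the modifier Usp2, with a median of 0.47. Per2 was at 3.83, 3.44, 3.48 and 3.27 in MLP livers, against 2.59, 2.49, 1.68 and 1.78 in C livers, a rise of 1.37 (SE 0.24, adjusted p = 0.0110). Per1 was at 2.66, 2.76, 2.72 and 2.76 in MLP livers, against 1.87, 1.50, 1.14 and 1.06 in C livers, a rise of 1.33 (SE 0.15, adjusted p = 0.00221). Usp2, a deubiquitinase under clock control, was at 2.96, 2.95, 2.40 and 2.28 in MLP livers, against 1.15, 1.30, 0.77 and 1.10 in C livers, a rise of 1.57 (SE 0.23, adjusted p = 0.00595). The MLP values of Per1 were almost equal, while its C values were spread. The repressor Cry1 rose by 0.77, and Bmal1, an activator that those repressors act on, rose by 0.32 (SE 0.07, adjusted p = 0.0262). The output factors of the clock had 0 of 5 probes called (0 at an unadjusted p below 0.05). The sources used here do not give the hour at which each litter was collected. Of these 5 genes, 3 were also called without C replicates 1 and 4, and the others had adjusted p-values of 0.0628 to 0.1 there. Leaving out each of the 12 livers in turn ended the call of Bmal1 in 6 fits, with an adjusted p of up to 0.0698 (Bmal1 without MLP replicate 2).

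The promoters of these 3 genes are shown because they rose together and because the letters recognised by clock factors can be looked for in them. Windows from 250 bases before to 50 after the annotated start were taken from RefSeq on build GRCr8, printed 5′ to 3′ on the strand of the gene, and matched 241 of the 283 genes called higher and 231 of the 277 called lower. Capitals mark a D-box, the site of PAR bZIP factors.
Per2, minus strand, chr9:99496944-99497243: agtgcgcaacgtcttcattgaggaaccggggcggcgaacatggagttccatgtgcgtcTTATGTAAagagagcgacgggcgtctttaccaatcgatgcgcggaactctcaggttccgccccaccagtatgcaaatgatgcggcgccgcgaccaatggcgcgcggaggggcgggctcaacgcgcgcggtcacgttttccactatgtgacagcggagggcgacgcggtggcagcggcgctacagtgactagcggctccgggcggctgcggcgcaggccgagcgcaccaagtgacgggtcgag
Per1, plus strand, chr10:54304126-54304425: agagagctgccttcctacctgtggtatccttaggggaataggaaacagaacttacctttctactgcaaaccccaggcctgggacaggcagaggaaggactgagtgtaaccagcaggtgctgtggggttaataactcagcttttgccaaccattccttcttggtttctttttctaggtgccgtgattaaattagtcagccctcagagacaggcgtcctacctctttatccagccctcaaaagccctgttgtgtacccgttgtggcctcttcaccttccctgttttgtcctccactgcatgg
Usp2, plus strand, chr8:53310620-53310919: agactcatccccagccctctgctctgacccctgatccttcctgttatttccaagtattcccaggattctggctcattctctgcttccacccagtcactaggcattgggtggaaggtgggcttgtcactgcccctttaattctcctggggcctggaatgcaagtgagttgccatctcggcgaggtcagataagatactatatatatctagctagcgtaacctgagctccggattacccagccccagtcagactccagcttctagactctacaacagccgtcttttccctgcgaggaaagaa
A D-box (TTATGTAA or TTACGTAA, both strands) was found in the Per2 window, at position -192 from the gene start. It was in 3 windows of genes called higher (1.24%) and in 1 of those called lower (0.433%), against 0.703% of the 8539 kept genes with a window and 1.01% of all 27457 windows. An E-box (CACGTG, which reads the same on both strands) was in 11.2% of windows of genes called higher and 9.96% of those called lower, against 8.70% of kept genes and 6.65% of all windows. A palindromic glucocorticoid response element (both strands) was in 4 windows (1.66%) and in 0 windows of these groups, against 0.375% of kept genes and 0.422% of all windows. With so few windows, the D-box and glucocorticoid shares rest on single genes. These are matches of letters, and the Per1 and Usp2 windows held none of the 3 motifs. Other variants of the motifs, such as E-boxes with letters other than CACGTG, were not looked for.

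Genes of glucocorticoid action had 6 rises and 1 fall among 22 probes, with a median of 0.20. Fkbp5, a co-chaperone of the receptor and a classical target, was at 4.51, 4.87, 4.47 and 4.31 in MLP livers, against 3.63, 3.91, 3.65 and 3.68 in C livers, a rise of 0.82 (SE 0.11, adjusted p = 0.00315). Serpina6, the plasma carrier of corticosteroids, was at 3.76, 3.19, 3.50 and 3.30 in MLP livers, against 1.98, 3.03, 2.22 and 2.51 in C livers, a rise of 1.00 (SE 0.19, adjusted p = 0.0164). A second, dim probe of Serpina6 differed by 0.048 (adjusted p = 0.812). Hsd11b1, which regenerates active corticosteroid in the liver, was at 5.20, 5.17, 4.94 and 5.07 in MLP livers, against 5.75, 6.0, 6.11 and 5.82 in C livers, a fall of 0.82 (SE 0.12, adjusted p = 0.00593). Klf9, a target of the receptor, rose by 0.91. Per1, Sult1a1 and Ddit4, given above, also belong to this list, so it does not stand apart from the clock and sulphotransferase lists. In the fit without C replicates 1 and 4, 4 of the 7 genes passed, and the rest had adjusted p-values of 0.105 to 0.279. Of the 12 fits that each leave 1 liver out, 11 lost the call of Ddit4 and 7 that of Klf9. The adjusted p was up to 0.119 (Ddit4 without C replicate 1).

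Among 25 secreted hepatocyte proteins 7 were higher and 1 was lower, with a median of 0.10. With C replicates 1 and 4 left out, 2 were higher and 0 lower, and the median was 0.012. Serpina12, an adipokine serpin, was at 1.04, 1.54, 1.53 and 1.46 in MLP livers, against 0.34, 0.50, 0.37 and 0.39 in C livers, a rise of 0.99 (SE 0.10, adjusted p = 0.000888). Azgp1, a lipid-mobilising glycoprotein, was at 7.47, 7.25, 7.45 and 7.41 in MLP livers, against 6.39, 6.81, 6.58 and 6.82 in C livers, a rise of 0.74 (SE 0.13, adjusted p = 0.0110). The esterase Pon3 rose by 0.66 and the protease Hgfac by 0.39. Complement had 1 rise and 3 falls among 27 probes, with a median of 0.018 that was -0.063 without C replicates 1 and 4. C9, which forms the membrane pore, was at 3.88, 3.60, 3.63 and 3.84 in MLP livers, against 5.34, 5.03, 6.23 and 5.27 in C livers, a fall of 1.73 (SE 0.22, adjusted p = 0.00274). C6, another terminal component, fell by 0.53 (SE 0.11, adjusted p = 0.0188). C4bpa, which restrains the classical pathway, fell by 0.61 (SE 0.11, adjusted p = 0.0110). C1qc, which begins the classical pathway and is made by macrophages, rose by 0.51 (SE 0.11, adjusted p = 0.0301). All 10 macrophage probes had positive differences, with a median of 0.13 and a summed level of 18.7 to 23.0 in MLP livers and 18.4 to 19.1 in C livers, and C1qc was the only one called. Without C replicates 1 and 4, 4 of the 8 genes passed and the others had adjusted p-values of 0.0614 to 0.188. When 1 liver at a time was left out, the call was lost for Pon3 in 4 of the 12 fits, C1qc in 6 and C6 in 4, and the highest adjusted p was 0.0895 (C1qc without MLP replicate 2).

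Calls in the acute phase list were falls among secreted proteins and rises among receptors. Of 18 secreted acute phase probes 0 were higher and 3 lower, with a median of -0.14. Apcs, the serum amyloid P component, was at 6.07, 6.01, 6.09 and 6.11 in MLP livers, against 6.69, 6.82, 6.36 and 6.44 in C livers, a fall of 0.51 (SE 0.10, adjusted p = 0.0175). Hpx, which binds free heme, and Fgl1, a hepatocyte-secreted fibrinogen-like protein, fell by 0.45 and 0.33. Il1r2, the decoy receptor of interleukin-1, was at 1.45, 1.56, 1.62 and 1.82 in MLP livers, against 0.62, 0.75, 0.92 and 0.77 in C livers, a rise of 0.85 (SE 0.09, adjusted p = 0.00122). Il6r, the receptor of interleukin-6, was at 1.94, 2.36, 2.01 and 1.96 in MLP livers, against 1.27, 1.50, 1.23 and 0.98 in C livers, a rise of 0.82 (SE 0.13, adjusted p = 0.00747). These 2 were the calls among 9 probes of receptors and signalling. In coagulation Proc, the anticoagulant protein C, rose by 0.58, Serpinf2, the inhibitor of plasmin, rose by 0.43, and Cpb2, which slows fibrinolysis, fell by 0.29, among 28 probes with a median of 0.033. A call was also made without C replicates 1 and 4 in 2 of the 8 genes, and the rest had adjusted p-values of 0.058 to 0.242. Over the 12 fits that each leave 1 liver out, calls were lost for Cpb2 in 6, Hpx in 9, Apcs in 2, Fgl1 in 10 and Serpinf2 in 9. Fgl1 without MLP replicate 3 had the highest adjusted p, 0.12.

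Lists of protein making and processing had few calls, several with a share below the 4.35% over all probes. Those of the mitochondrial ribosome, splicing, unfolded protein response and secretory entry lists were near it, at 5.26%, 5.45%, 5.56% and 5.71%. That of translation factors was 6.90%. Of 35 probes for entry into the secretory pathway and glycosylation 0 were higher and 2 lower, with a median of -0.068. Rpn2, a subunit of the oligosaccharyltransferase, was at 4.48, 4.24, 4.07 and 3.96 in MLP livers, against 4.83, 5.08, 5.21 and 4.79 in C livers, a fall of 0.79 (SE 0.14, adjusted p = 0.0105), and the signal peptidase subunit Sec11c fell by 0.43. In the unfolded protein response 1 of 18 probes was called, that of Pdia6, a disulphide isomerase, which fell by 0.61 (SE 0.09, adjusted p = 0.00541), with a list median of -0.18. Hspa14, a ribosome-bound Hsp70, was at 2.99, 2.73, 2.63 and 2.88 in MLP livers, against 3.58, 3.39, 3.65 and 3.52 in C livers, a fall of 0.73 (SE 0.09, adjusted p = 0.00274) and the only call among 34 chaperone probes. Splicing had 3 falls among 55 probes, in Snrpa, Hnrnpf and Sf3a1, by 0.70, 0.50 and 0.33, with a median of -0.080. The proteasome had 1 call among 39 probes, a fall of 0.27 in the core subunit Psma7, below the share over all probes, while only 9 of 39 differences were positive, with a median of -0.14. Cytosolic ribosome probes had 1 call among 57, a fall of 0.38 in Rpl4, and a median of -0.00011. The mitochondrial ribosome had 2 rises and 1 fall among 57 probes, with a median of 0.061. Mrpl3 and mrpl9 rose by 0.56 and 0.48, and Mrpl21 fell by 0.38. Ribosome biogenesis had 1 call among 33 probes, a rise of 0.40 in Rrp1. Of 29 probes for translation factors 2 were called, and Eif2b3 rose by 0.26 while Eef1b2 fell by 0.49. With C replicates 1 and 4 left out, 5 of these 15 genes were called, and the others had adjusted p-values of 0.0953 to 0.28. With livers left out singly, the calls lost were Eef1b2 in 9 of the 12 fits, Sf3a1 in 10, Mrpl3 in 6, Sec11c in 5, Snrpa in 9, Rpl4 in 10, Eif2b3 in 1, Rrp1 in 7 and Psma7 in 11, where the adjusted p reached 0.14 for Sf3a1 without MLP replicate 2.

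Antioxidant genes had 3 falls and 1 rise among 28 probes. Txn1, the cytosolic thioredoxin, was at 3.45, 3.25, 3.27 and 3.34 in MLP livers, against 3.84, 3.70, 3.91 and 3.75 in C livers, a fall of 0.47 (SE 0.08, adjusted p = 0.00965). Prdx1, a peroxiredoxin that thioredoxin recycles, and Gclc, the rate-limiting enzyme of glutathione synthesis, fell by 0.41 and 0.63. Nqo1, a quinone reductase, was at 3.94, 3.34, 2.78 and 3.17 in MLP livers, against 2.03, 1.99, 2.12 and 2.93 in C livers, a rise of 1.04 (SE 0.26, adjusted p = 0.0496). Iron handling had 1 rise and 2 falls among 16 probes, with a median of -0.048. Slc39a8, a zinc and iron importer, fell by 0.49 (SE 0.08, adjusted p = 0.0102). Tfrc, the transferrin receptor, fell by 0.44 (SE 0.11, adjusted p = 0.0496), and Tmprss6, a protease that lowers hepcidin, rose by 0.59 (SE 0.12, adjusted p = 0.0202). The 12 probes of the heme synthesis and breakdown list had 0 calls (6 at an unadjusted p below 0.05) and a median of -0.26. That list did not include Alas2, whose rise is given above with the erythroid genes. Calls among tight junction genes were all falls. Cldn3 was at 0.41, 0.82, 0.67 and 0.50 in MLP livers, against 1.36, 1.97, 2.25 and 2.12 in C livers, a fall of 1.32 (SE 0.22, adjusted p = 0.00879), and Cldn2 fell by 0.47 (SE 0.10, adjusted p = 0.0204). With F11r, which fell by 0.43 (SE 0.11, adjusted p = 0.0493), 3 of 23 junction probes fell, with 0 rises and a median of -0.058. Of these 10 genes, 3 were also called without C replicates 1 and 4, and the rest had adjusted p-values of 0.0623 to 0.283 there. Leaving out each of the 12 livers in turn ended the call of F11r in 11 fits, Gclc in 6, Tfrc in 9, Tmprss6 in 4, Prdx1 in 9, Cldn2 in 2 and Nqo1 in 9, with an adjusted p of up to 0.132 (Tfrc without MLP replicate 2).

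Called lysosome genes were all higher. Of 30 probes 4 were higher and 0 lower, 25 differences were positive and the median was 0.18. Man2b1, a lysosomal mannosidase, was at 3.65, 3.75, 3.79 and 3.80 in MLP livers, against 3.23, 3.32, 3.07 and 3.04 in C livers, a rise of 0.58 (SE 0.07, adjusted p = 0.00249). Tpcn2 and Tpcn1, ion channels of the lysosome membrane, rose by 0.65 and 0.39, and the sulphatase Arsa by 0.27. In autophagy Map1lc3a and Map1lc3b, which coat the autophagosome, rose by 0.64 and 0.67 and their relative Gabarap fell by 0.27, with a median of 0.020 over 24 probes. Calls among growth genes differed between lists. Growth hormone, insulin-like growth factor and insulin genes had 1 call among 29 probes (3.45%), below the share over all kept probes. It was Igf2r, the receptor that clears Igf2, at 4.79, 4.53, 4.54 and 4.52 in MLP livers, against 5.22, 5.21, 5.05 and 5.29 in C livers, a fall of 0.60 (SE 0.11, adjusted p = 0.0111). The list of imprinted genes, which did not include Igf2r, had 2 rises and 0 falls among 13 probes (15.4%), with a median of 0.017. Snrpn, a spliceosome protein, rose by 0.56 (SE 0.07, adjusted p = 0.00249) and Cdkn1c, a growth-restraining inhibitor of cyclin-dependent kinases, by 0.32 (SE 0.08, adjusted p = 0.0421). Interferon-induced genes had 2 rises among 28 probes, in Ifitm1 by 0.71 and Irf7 by 0.44, with a median of 0.11 that was 0.033 without C replicates 1 and 4. In the fit without C replicates 1 and 4, 6 of the 12 genes passed, and the others had adjusted p-values of 0.0719 to 0.219. Of the 12 fits that each leave 1 liver out, 6 lost the call of Irf7, 5 Gabarap, 7 Arsa and 1 Tpcn1. Map1lc3b lost its call in 7, Map1lc3a in 9 and Cdkn1c in 7, with an adjusted p of up to 0.122 (Map1lc3a without MLP replicate 3).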

How the data were processed

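Liver RNA of 12 male pups was measured on 1-colour Illumina BeadChips. The deposited log2 values of 22505 probes were made by the authors from bead summaries, with the packages beadarray and limma and quantile normalization. Their versions, any background correction and the rule that filtered probes are not given in the sources used here. These values were re-expanded by raising 2 to each value and subtracting 16. A second deposited table of bead intensities has 12 columns that match no sample label and was not used.

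Linear models (limma 3.58.1 in R 4.3.3, lmFit and eBayes, 9 residual and 2.26 prior degrees of freedom) were fitted to the 3 groups over the 15753 probes whose mean exceeded the 30th percentile, two-sided, after the model was tested on simulated data. Samples were grouped by their titles. No depth exists for arrays, and 4 livers per group limit the precision. Symbols came from the platform annotation, and where a gene had several probes (218 genes) the probe of lowest p-value is given. Of the 20 such genes with a call, 3 had a second probe called and 5 had a probe of opposite sign.

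Genes were named by a rule: the 12 largest rises and 12 largest falls that had a symbol and groups without overlap, outside the cell cycle, DNA repair and DNA methylation lists, 3 of each in every one of 3 groups of level, up to 4 calls per list by p-value, and the 5 lowest p-values overall. Further called members of a list, and markers of other tissues, were named after their values were seen. The members, the 67 lists and the tests were chosen with earlier results of these data known. Alternatives were fits to 8 livers, without C replicates 1 and 4, without each liver, with a replicate block, other filters, scales, normalizations, priors and array weights.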

Additional observations from a re-analysis of the deposited data

Results flagged for a closer look

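Single livers stood apart from their 3 littermates, by a gap to the nearest value beyond Dixon's critical share of the group's range, in 25 of 322 groups of 4 values checked for the named probes, 11 in MLP and 14 in C. Chance alone flags about 1 group in 20. In MLP livers, replicate 1 stood apart in Serpina12 (1.04), ILMN_1352530 (3.74), C6 (1.45), Igf2r (4.79) and Acat2 (2.20), replicate 2 in Slc39a8 (0.436) and Tuba1a (4.36), replicate 3 in Crat (2.77), and replicate 4 in Tsku (1.59), Pex13 (3.57) and Sec11c (4.18). In C livers, replicate 1 stood apart in Crot (4.63), Smad4 (3.65) and Krt14 (3.56), replicate 2 in Fkbp5 (3.91), Hgfac (5.23) and Sf3a1 (1.09), replicate 3 in Adhfe1 (0.723), and replicate 4 in Nqo1 (2.93), Zcchc9 (1.03), Fabp2 (2.84), Gsn (5.64), Ckm (4.95), Acta1 (7.22) and Myh3 (4.91). The last 3 are skeletal muscle genes, and Krt14 is a keratin of the skin.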

How the results depend on the processing

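The count of 685 calls stayed within 1.5 times under most alternatives, and 0 of the 132 named probes changed direction in any fit. Leaving livers out cannot change the direction of a probe whose MLP and C values do not overlap. Counts were 863 with only the 8 MLP and C livers, 490 with no filter, 842 with means above the 50th percentile, 704 on the deposited log2 values, 669 with quantile normalization added, 682 with median centring, 747 with a trended and robust prior and 929 with array weights. Without C replicates 1 and 4 there were 211 calls, 107 higher and 104 lower, with 16 at 0.01. A fit to only C replicates 2 and 3 and the MLP livers, added after the data were seen, gave 469 calls, 220 higher, with 43 at 0.01. The count of 155 at 0.01 was the less stable, at 265 with 8 livers, 63 with no filter, 252 above the 50th percentile, 299 with the trended and robust prior and 276 with array weights. Leaving out 1 liver at a time gave 335 to 814 calls, 190 to 423 higher, 145 to 391 lower and 26 to 224 at 0.01. The lowest totals were without MLP replicates 2 (335), 4 (369) and 3 (386) and C replicate 1 (391).

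Same-numbered MLP and C livers did not deviate together (r = -0.0069, 0.0665, -0.108 and 0.0666), and 1 of the 4 MLP livers correlated best with its own number. The replicate block, with 562 calls, 298 higher and 71 at 0.01, therefore pairs livers by number only. Of the named probes 27 lost their call with it, 75 without C replicates 1 and 4, 29 with no filter and 12 with 8 livers, and the cause was not tested. Dim probes limit what can be seen, as their differences may be compressed on this scale. The compression was not tested.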

Other observations

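Many called genes belonged to none of the 67 lists, 185 higher and 171 lower in MLP livers, and the genes given here were chosen after their values were seen. Among the rises, Slfn4, a Schlafen family gene of myeloid cells, was at 2.37, 2.80, 2.69 and 2.60 in MLP livers, against 1.31, 1.53, 1.19 and 1.01 in C livers, a rise of 1.36 (SE 0.18, adjusted p = 0.00401). Klf15, a transcription factor that acts on amino acid breakdown genes and responds to glucocorticoids, was at 1.69, 1.92, 1.58 and 2.37 in MLP livers, against 0.80, 0.62, 0.86 and 1.09 in C livers, a rise of 1.04 (SE 0.18, adjusted p = 0.00965). Adhfe1, a mitochondrial hydroxyacid transhydrogenase, rose by 1.15 (SE 0.21, adjusted p = 0.0121), Car5a, the mitochondrial carbonic anhydrase that supplies bicarbonate to the urea cycle, by 1.04 (SE 0.24, adjusted p = 0.0331), Qsox1, a secreted sulphydryl oxidase, by 1.10 (SE 0.23, adjusted p = 0.0235) and Gsn, the actin-severing gelsolin, by 0.97 (SE 0.13, adjusted p = 0.00390). The 4 MLP livers were above the 4 C livers in each of these genes. Slfn4, Klf15 and Gsn were also called without C replicates 1 and 4 (adjusted p = 0.0410, 0.0442 and 0.0310), and Adhfe1, Car5a and Qsox1 were not (0.0577, 0.176 and 0.157).

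Among the falls, Tuba1a, an alpha tubulin, was at 4.11, 4.36, 4.11 and 4.14 in MLP livers, against 5.79, 4.76, 4.72 and 5.42 in C livers, a fall of 1.00 (SE 0.21, adjusted p = 0.0219). The beta tubulin Tubb6 fell by 0.93 (SE 0.22, adjusted p = 0.0395) and the prion protein gene Prnp by 0.91 (SE 0.22, adjusted p = 0.0426). In these 3 genes C replicate 1 was the highest liver, and without C replicates 1 and 4 the differences were -0.56, -0.80 and -0.50 (adjusted p = 0.0455, 0.188 and 0.160). Acat2, the cytosolic thiolase that begins sterol synthesis, fell by 0.90 (SE 0.18, adjusted p = 0.0192), the chemokine Cxcl12 by 0.82 (SE 0.16, adjusted p = 0.0193) and the immediate early factor Egr1 by 0.74 (SE 0.18, adjusted p = 0.0467), and none of these 3 was called without the 2 C livers (0.0942, 0.108 and 0.241). Dlk1, a membrane protein of fetal hepatoblasts, was called only without them, at 3.46, 3.76, 4.01 and 3.96 in MLP livers, against 3.58, 2.90, 2.37 and 3.78 in C livers, a difference of 1.16 (adjusted p = 0.0348) beside 0.64 with all livers (adjusted p = 0.240).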
